A study of Mus musculus with 8 samples.

Results

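Krt7, Krt8, Krt18, Krt19, Vim, Lmna, Lmnb1 and Lmnb2 encode the simple keratins, vimentin and the lamins, the intermediate filament proteins usually found in early embryonic cells. These 8 genes were taken by symbol from the 48440 genes listed in the count data. The cells were MK6 mouse ES cells of C57BL/6J origin, collected on day 1 of differentiation, withdrawn from LIF and the 2i inhibitors in N2/B27 medium and then given CHIR99021, a GSK3 inhibitor that activates WNT signalling. The 4 genotypes were wild-type cells, TbxtΔexon6/Δexon6 cells lacking exon 6 of Tbxt on both alleles, TbxtΔexon6/+ cells lacking it on 1 allele, and TbxtinsASAY/insASAY cells carrying an AluSx1 and AluY pair inserted around that exon on both alleles. Each genotype had 2 libraries. The TbxtΔexon6/Δexon6 libraries came from different clones, and for the other genotypes the number of clones was not given in the sources used here, so the p-values measure only the spread between these libraries. The exon 6 deletion was made without feeder cells and the insertion on embryonic fibroblast feeders, and all lines were differentiated without feeders.

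Intermediate filaments are built from rod-shaped proteins that pair along their length and assemble into rope-like polymers without a motor or an energy source. Type I keratins (Krt18 and Krt19) form obligate heterodimers with type II keratins (Krt7 and Krt8), vimentin polymerises with itself, and lamins form the meshwork under the inner nuclear membrane. Keratin 8 and keratin 18 are the first keratins of the mouse embryo and are prominent in trophectoderm and simple epithelia, vimentin is typical of mesenchymal cells, and pluripotent cells are known for high B-type and low A-type lamin. The comparisons below ask how the transcripts of these filaments differed with the Tbxt genotype.

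The promoter sequences of the keratin pair Krt8 and Krt18, of Vim, and of Krt7 are shown because the first 3 genes were all lower in TbxtΔexon6/+ than in TbxtΔexon6/Δexon6 cells, while Krt7, a keratin on the same chromosome, was not called in any comparison. RefSeq promoter windows (GRCm38.p6), covering 250 bases before and 50 bases after a gene's RefSeq start, were matched for 6 of the 8 genes: Krt7, Krt8, Krt18, Vim, Lmna and Lmnb2. Each sequence is written 5′ to 3′ on the strand of the gene, with capitals marking every match on either strand to a T-box motif (AGGTGTGA, or its core GGTGTGA, which it contains), an AP-1 motif (TGANTCA), an Sp/Klf box (GGGCGG), a Tcf/Lef motif (CTTTGAA or CTTTGAT) or a TATA box (TATAAA). The windows are Krt8, chr15:102004293-102004592, minus strand; Krt18, chr15:102027966-102028265, plus strand; Krt7, chr15:101412153-101412452, plus strand; and Vim, chr2:13574061-13574360, plus strand.
Krt8: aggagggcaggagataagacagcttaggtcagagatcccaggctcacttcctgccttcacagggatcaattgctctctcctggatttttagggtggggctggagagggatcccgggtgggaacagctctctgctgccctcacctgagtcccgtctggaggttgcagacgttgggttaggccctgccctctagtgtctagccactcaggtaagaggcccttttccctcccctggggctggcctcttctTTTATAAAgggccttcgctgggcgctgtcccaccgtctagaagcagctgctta
Krt18: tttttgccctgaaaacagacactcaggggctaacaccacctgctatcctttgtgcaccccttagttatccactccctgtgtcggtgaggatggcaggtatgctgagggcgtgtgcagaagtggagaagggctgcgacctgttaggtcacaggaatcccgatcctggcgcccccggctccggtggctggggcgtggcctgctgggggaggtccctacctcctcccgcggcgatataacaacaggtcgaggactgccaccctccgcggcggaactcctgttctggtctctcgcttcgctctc
Krt7: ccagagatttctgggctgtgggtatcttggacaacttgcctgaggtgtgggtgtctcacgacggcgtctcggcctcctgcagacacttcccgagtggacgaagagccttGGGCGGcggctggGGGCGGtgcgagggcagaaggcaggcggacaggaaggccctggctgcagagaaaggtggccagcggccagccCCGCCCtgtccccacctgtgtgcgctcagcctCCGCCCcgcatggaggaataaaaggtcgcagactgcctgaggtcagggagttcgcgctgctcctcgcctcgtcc
Vim: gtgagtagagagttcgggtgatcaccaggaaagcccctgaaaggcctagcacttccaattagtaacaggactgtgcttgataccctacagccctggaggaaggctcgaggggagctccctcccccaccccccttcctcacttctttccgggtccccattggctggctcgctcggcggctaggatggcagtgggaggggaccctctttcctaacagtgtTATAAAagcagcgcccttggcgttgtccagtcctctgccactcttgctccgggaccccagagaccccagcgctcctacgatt

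Letters of the T-box and Tcf/Lef motifs were not found in any window of the 6 genes. Over all 32851 mouse promoter windows of the same length, AGGTGTGA was present in 1.28%, its core in 3.98%, CTTTGAA in 5.14% and CTTTGAT in 3.73%, so that absence from a handful of windows is the usual case. The Krt8 capitals are overlapping TATA-box letters on both strands beside the start, and the Vim capitals are a TATA box 32 bases before it; 13.6% of all windows held TATAAA. The Krt7 capitals are 4 Sp/Klf boxes, a motif in 35.7% of all windows, and the Krt18 window held none of the motifs. An Sp/Klf box was also found in a window of Lmna and of Lmnb2. AP-1 letters, present in 7.81% of all windows, were found in a Lmna window (chr3:88503303-88503602), 39 bases after its RefSeq start. The windows of Krt7, Vim and Lmna lie wholly inside the gene spans given below. They therefore need not hold the outermost start of the gene. These matches are descriptions of the letters in the windows.

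Each library held between 24618587 and 28445952 reads on genes. Tbxt, the edited gene, had 22 to 54 reads per library, a mean of 1.63 CPM in wild-type, 0.930 in TbxtΔexon6/Δexon6, 1.84 in TbxtΔexon6/+ and 1.08 in TbxtinsASAY/insASAY cells, and counts over the whole gene do not show which exons were present. CPM here is the count of a gene scaled to the TMM-adjusted library size. A gene was called changed at a Benjamini-Hochberg adjusted p under 0.05 in the edgeR quasi-likelihood test over 17049 tested genes together with a log2 fold change past 0.5 in size. The 2 TbxtΔexon6/Δexon6 libraries differed from each other more than other replicate pairs did: the chi-square per degree of freedom between replicates was 10.5 in that genotype and 2.65 to 3.27 in the others, and for the 8 genes, values without each library of that pair are given beside the calls that rest on it. The ES cell genes Pou5f1, Sox2 and Nanog were expressed in every genotype, with means of 180.0 to 288 CPM for Pou5f1, 56.4 to 113 for Sox2 and 17.4 to 35.8 for Nanog.

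All 8 genes passed the filter on low counts, with at least 163 reads in every library. Per kilobase of merged exon in wild-type cells, the order of levels was Krt18 (128 ± 7.63 CPM per kilobase, SD, n = 2), Lmnb1 (103 ± 0.997), Krt8 (94.2 ± 3.55), Vim (29.3 ± 0.204), Krt19 (21.6 ± 0.439), Lmnb2 (11.8 ± 0.0277), Lmna (6.25 ± 0.384) and Krt7 (1.12 ± 0.0831). Day-1 cells thus held Krt8 and Krt18 as their main keratin pair, and Lmnb1 as the main lamin transcript. The scale depends on the exon length used: dividing by the longest coding transcript instead put Vim at 63.4 and Lmna at 11.6 CPM per kilobase, without changing the order. By CPM over all libraries, Lmnb1 was above 97.1% of the tested genes, Krt8 above 93.6%, Krt18 above 92.4% and Vim above 92.2%, while Krt7 was above 38.7%.

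**Figure D1:**
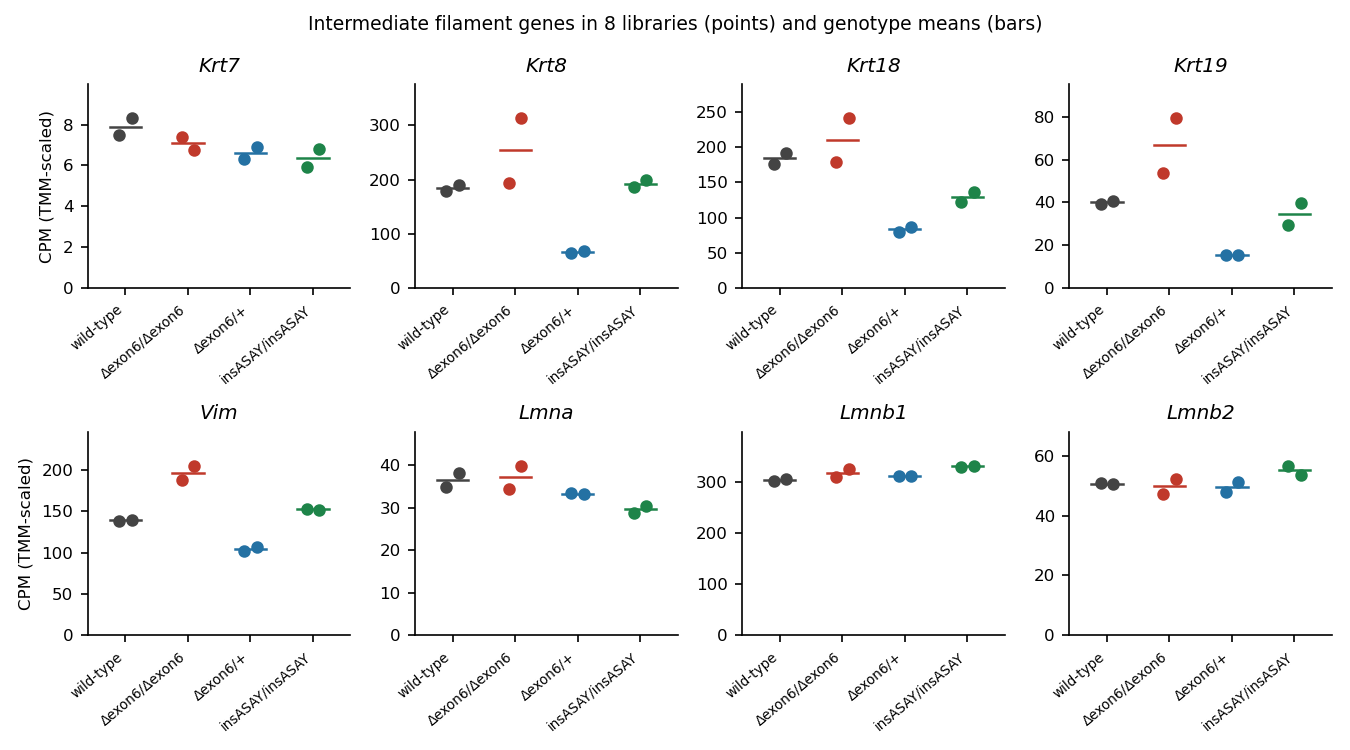
TMM-scaled CPM (vertical axes, from 0) of the 8 genes in the 2 libraries of each genotype (points) with the mean of the 2 (bars). The TbxtΔexon6/+ libraries lie lowest for Krt8, Krt18, Krt19 and Vim, 1 TbxtΔexon6/Δexon6 library lies highest for Krt8 (313 CPM), Krt18 and Krt19, and Lmnb1 stays between 303 and 333 CPM.

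The clearest difference was a loss of keratin transcripts in TbxtΔexon6/+ cells. Krt8, Krt18 and Krt19 fell to less than 50% of their wild-type level, and Vim, Krt7 and the lamins were not called. Of the 8 genes, 3 were called lower and 0 higher in this comparison, in which 13.5% of all tested genes were called (6.60% higher and 6.89% lower). The median log2 fold change of the 8 genes was −0.33, beside −0.000586 over all tested genes.

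Krt8, the type II partner of keratin 18, lies on chromosome 15 (101996698 to 102004482 in mm10, minus strand; ENSMUSG00000049382.9). Krt8 stood at 179 and 189 CPM in the wild-type libraries, 194 and 313 in TbxtΔexon6/Δexon6, 186 and 199 in TbxtinsASAY/insASAY, and 64.0 and 67.4 in TbxtΔexon6/+. Both TbxtΔexon6/+ libraries lay below every other library, and the wild-type and TbxtinsASAY/insASAY ranges overlapped. In TbxtΔexon6/+ cells its log2 fold change from wild-type was −1.49 ± 0.153 (SE), a 2.81-fold lower level (edgeR adjusted p = 1.17e-05). In TbxtinsASAY/insASAY cells it was 0.06, with a 95% confidence interval from −0.25 to 0.38 (edgeR adjusted p = 0.748). In TbxtΔexon6/Δexon6 cells it was 0.46 ± 0.144 (edgeR adjusted p = 0.0247), which passed the p threshold but not the fold threshold, and its size was set by 1 library: 0.08 without replicate 2 and 0.77 without replicate 1. The p threshold was also missed with the DESeq2 Wald test (adjusted p = 0.129), with these 2 genotypes alone (edgeR adjusted p = 0.0615) and without either wild-type library (edgeR adjusted p = 0.139 and 0.0864). Of the windows of 100 bases in the Krt8 transcript, 17.1% (317 of 1859) were shared with transcripts of Krt8-ps or Gm36026, and reads that map to several places were not counted, so the level of Krt8 can be understated. Gm36026 overlaps Krt8 by 101 bases on the opposite strand.

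Krt18, the type I partner, is the next tested gene on the same chromosome (102028180 to 102032027, plus strand; ENSMUSG00000023043.6). Its levels were 177 and 192 CPM in wild-type, 179 and 241 in TbxtΔexon6/Δexon6, 123 and 137 in TbxtinsASAY/insASAY, and 80.3 and 86.2 in TbxtΔexon6/+ libraries. The order was TbxtΔexon6/+, TbxtinsASAY/insASAY, then the other genotypes, and only wild-type and TbxtΔexon6/Δexon6 overlapped. Krt18 fell by 1.15 on the log2 scale in TbxtΔexon6/+ cells (SE 0.108, edgeR adjusted p = 5.74e-06). It also fell in TbxtinsASAY/insASAY cells, by 0.51 on the log2 scale (SE 0.105, edgeR adjusted p = 0.0016). This value sat at the fold threshold, at −0.45 without wild-type replicate 2 and −0.43 without TbxtinsASAY/insASAY replicate 1, where it was no longer called. In TbxtΔexon6/Δexon6 cells the log2 fold change was 0.19 (95% confidence interval −0.04 to 0.41, edgeR adjusted p = 0.177).

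Krt19, a type I keratin of simple epithelia that pairs with keratin 8 or keratin 7, lies on chromosome 11 (100140810 to 100148665, minus strand; ENSMUSG00000020911.14). It was measured at 39.4 and 40.6 CPM in wild-type, 54.0 and 79.3 in TbxtΔexon6/Δexon6, 29.3 and 39.5 in TbxtinsASAY/insASAY, and 15.3 in each TbxtΔexon6/+ library. Its highest library was 5.18 times its lowest, the widest range of the 8 genes. Krt19 fell by 1.38 on the log2 scale in TbxtΔexon6/+ cells (SE 0.169, edgeR adjusted p = 4.79e-05). In TbxtΔexon6/Δexon6 cells it rose by 0.74 (SE 0.150, edgeR adjusted p = 0.00248) and was the only one of the 8 genes called there, in a comparison where 12.7% of all tested genes were called (6.12% higher and 6.59% lower). That call rested on 1 clone: without TbxtΔexon6/Δexon6 replicate 2 the change was 0.43 and not called, and without replicate 1 it was 0.99. In TbxtinsASAY/insASAY cells the log2 fold change was −0.22 (95% confidence interval −0.55 to 0.12, edgeR adjusted p = 0.274).

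Krt7, the other type II keratin, lies on chromosome 15 (101411043 to 101430313, plus strand; ENSMUSG00000023039.16). It was present at 7.47 and 8.30 CPM in wild-type, 6.75 to 7.41 in TbxtΔexon6/Δexon6, 5.94 to 6.81 in TbxtinsASAY/insASAY and 6.32 to 6.91 in TbxtΔexon6/+ libraries. Both wild-type libraries were above all 6 mutant libraries, by a small margin. Relative to wild-type its log2 fold changes were −0.16, −0.31 and −0.25 in the same order, with edgeR adjusted p of 0.372, 0.0688 and 0.162. The 95% confidence interval in TbxtΔexon6/+ cells, from −0.54 to 0.03, does not reach the changes of Krt8, Krt18 or Krt19. Gm671 overlaps Krt7 by 77 bases on the opposite strand.

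Vim, the type III filament gene, lies on chromosome 2 (13573927 to 13582826, plus strand; ENSMUSG00000026728.9). Vim stood at 138 and 139.8 CPM in wild-type, 188 and 205 in TbxtΔexon6/Δexon6, 152 and 153 in TbxtinsASAY/insASAY, and 102 and 107 in TbxtΔexon6/+ libraries. No pair of genotypes overlapped, and replicates differed by little beside the distance between genotypes. The log2 fold changes against wild-type were −0.41 ± 0.0516 in TbxtΔexon6/+ (edgeR adjusted p = 5.94e-05), 0.50 ± 0.0505 in TbxtΔexon6/Δexon6 (edgeR adjusted p = 4.42e-05) and 0.13 ± 0.0507 in TbxtinsASAY/insASAY cells (edgeR adjusted p = 0.0462). All of these passed the p threshold and stayed within the fold threshold. The TbxtinsASAY/insASAY change missed the p threshold with the DESeq2 Wald test and without a filter on low counts. The TbxtΔexon6/Δexon6 value was 0.498 before rounding and passed the fold threshold, at 0.51, with the DESeq2 Wald test, at 0.51 with DESeq2 size factors and at 0.50 without a filter on low counts. It was 0.56 without replicate 1 of that genotype and called, and 0.43 without replicate 2 and not called; without wild-type replicate 2 it was 0.50 and called.

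**Figure D2:**
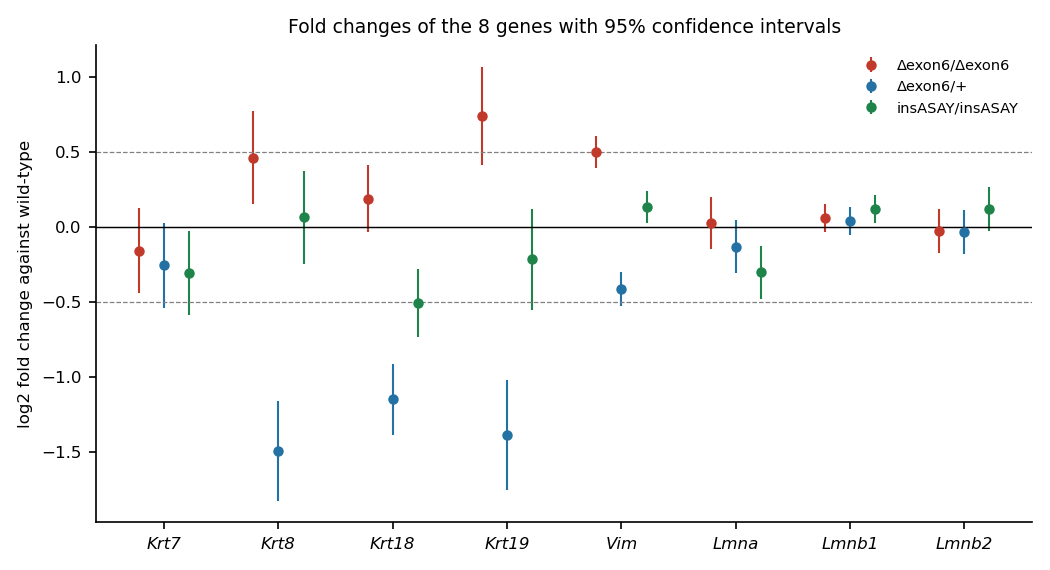
Log2 fold change against wild-type (vertical axis) of the 8 genes in the 3 mutant genotypes, from the edgeR fit; points are estimates, lines are 95% confidence intervals, and dashed lines mark 0.5 in either direction. Krt8, Krt18 and Krt19 lie between −1.15 and −1.49 in TbxtΔexon6/+ cells, and the lamins lie between −0.30 and 0.12 in every genotype.

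Lmnb1, the B-type lamin with the highest transcript level, varied least. It stood at 303 and 307 CPM in wild-type, 310 and 326 in TbxtΔexon6/Δexon6, 330.0 and 333 in TbxtinsASAY/insASAY, and 313 in each TbxtΔexon6/+ library. The TbxtinsASAY/insASAY libraries were the highest, with a log2 difference from wild-type of 0.12 (95% confidence interval 0.03 to 0.21, edgeR adjusted p = 0.0353), far within the fold threshold. In TbxtΔexon6/+ cells the change was 0.04, with a 95% confidence interval from −0.06 to 0.13.

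Lmnb2, the second B-type lamin, lies on chromosome 10 (80901203 to 80918245, minus strand; ENSMUSG00000062075.13). It ranged from 47.2 to 56.7 CPM, with the TbxtinsASAY/insASAY libraries, at 56.7 and 53.5, above all others. Its log2 difference from wild-type was 0.12 in TbxtinsASAY/insASAY cells (95% confidence interval −0.03 to 0.26, edgeR adjusted p = 0.162), and it was −0.03 in TbxtΔexon6/Δexon6 and −0.04 in TbxtΔexon6/+ cells. No Lmnb2 comparison passed the p threshold.

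Lmna, which encodes lamins A and C, lies on chromosome 3 (88480147 to 88509956, minus strand; ENSMUSG00000028063.15). It was measured at 34.9 and 38.1 CPM in wild-type, 34.3 and 39.9 in TbxtΔexon6/Δexon6, 28.7 and 30.5 in TbxtinsASAY/insASAY, and 33.5 and 33.1 in TbxtΔexon6/+ libraries. The TbxtinsASAY/insASAY libraries were the lowest, and the log2 fold change of −0.30 ± 0.0819 (edgeR adjusted p = 0.00852) passed the p threshold but not the fold threshold. In TbxtΔexon6/+ cells it was −0.13, with a 95% confidence interval from −0.31 to 0.04. Lmna was 3.79 to 5.34% of the summed lamin transcripts per kilobase of merged exon in every library. This share depends on the length used and is larger by longest coding transcript. On that scale Lmna stood at 11.6, Lmnb1 at 107 and Lmnb2 at 14.4 CPM per kilobase in wild-type cells.

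In TbxtinsASAY/insASAY cells as a whole, 1 of the 8 genes was called lower and 0 higher against wild-type, where 21.3% of all tested genes were called (11.5% higher and 9.85% lower). The direct comparisons of the mutants gave larger differences. Between TbxtΔexon6/+ and TbxtΔexon6/Δexon6 cells, 4 of the 8 genes were called, all lower in TbxtΔexon6/+ (22.2% of all genes were called): Krt19 by 4.36-fold, Krt8 by 3.87-fold, Krt18 by 2.52-fold and Vim by 1.88-fold. Without TbxtΔexon6/Δexon6 replicate 1 and without replicate 2 these log2 differences were −2.38 and −1.82 for Krt19, −2.26 and −1.57 for Krt8, −1.54 and −1.10 for Krt18, and −0.98 and −0.85 for Vim, all still called. Between TbxtinsASAY/insASAY and TbxtΔexon6/+ cells the same 4 genes were called, all higher in TbxtinsASAY/insASAY (27.5% of all genes were called), Krt8 by 2.93-fold, Krt19 by 2.25-fold, Krt18 by 1.56-fold and Vim by 1.46-fold. These comparisons share the TbxtΔexon6/+ libraries, so they are not independent of each other. Between TbxtinsASAY/insASAY and TbxtΔexon6/Δexon6 cells, Krt18 (log2 fold change −0.69, edgeR adjusted p = 0.000811) and Krt19 (−0.95, edgeR adjusted p = 0.0011) were called lower in TbxtinsASAY/insASAY, where 5.16% of all genes were called; without TbxtΔexon6/Δexon6 replicate 2 the Krt18 difference was −0.46 and not called, and without replicate 1 Krt8 was also called, at −0.71.

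The balance between the keratin partners was read as a ratio within each library. The ratio of Krt8 to Krt18 per kilobase was 0.746 and 0.723 in wild-type, 0.799 and 0.952 in TbxtΔexon6/Δexon6, 0.585 and 0.573 in TbxtΔexon6/+, and 1.11 and 1.07 in TbxtinsASAY/insASAY libraries. The libraries of different genotypes did not overlap in this ratio, and the TbxtinsASAY/insASAY libraries were the highest. Since Krt8 shares sequence with Krt8-ps and reads that map to several places were not counted, the ratio can be understated in every library. The value does not show which of the 2 transcripts was more abundant. Over both types, the ratio of type II to type I keratins ran from 0.518 in a TbxtΔexon6/+ library to 0.948 in a TbxtinsASAY/insASAY library. These ratios are given as a description, with no test: with 2 libraries against 2, a two-sided exact permutation test cannot give a p below 0.333.

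Summed per kilobase, the 4 keratins came to 237 and 253 CPM per kilobase in wild-type, 254 and 371 in TbxtΔexon6/Δexon6, 197 and 219 in TbxtinsASAY/insASAY, and 97.7 and 104 in TbxtΔexon6/+ libraries. The 3 lamins came to 120.1 to 130.0 CPM per kilobase in all 8 libraries. TbxtΔexon6/+ cells were therefore the only genotype in which the summed lamin level was above the summed keratin level. The ratio of Vim to the summed keratins was 0.221 and 0.217 there and 0.116 to 0.164 in the other libraries. By longest coding transcript it was 0.468 and 0.461 in TbxtΔexon6/+ and 0.246 to 0.348 in the other libraries. In bulk RNA, fewer cells of a type and less RNA per cell cannot be told apart.

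**Figure D3:**
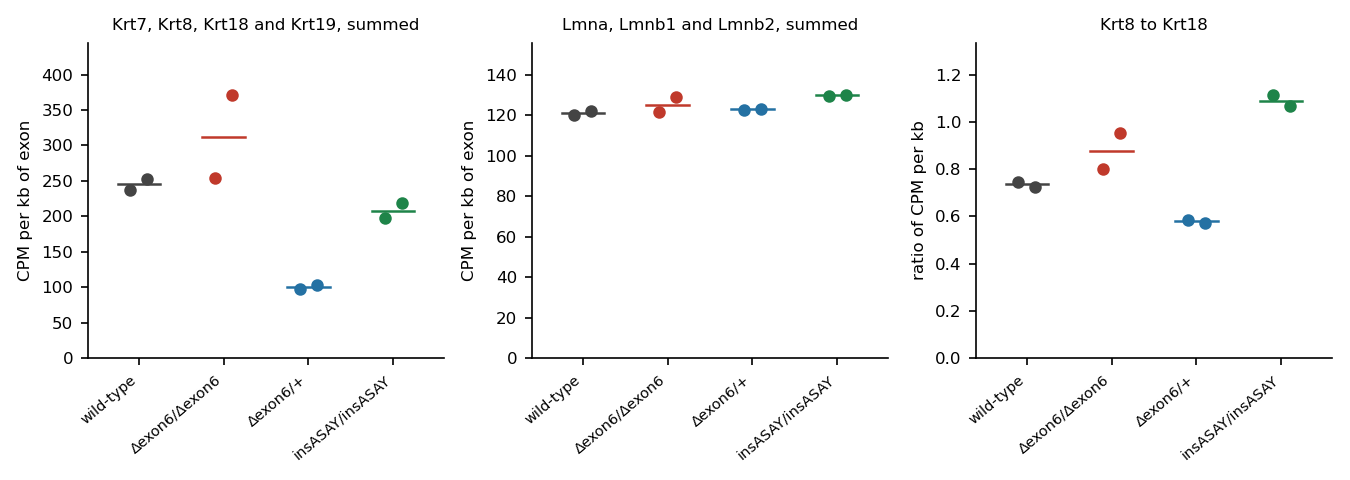
Left and middle, summed level of the 4 keratins and of the 3 lamins in CPM per kilobase of exon; right, ratio of Krt8 to Krt18 per kilobase; points are libraries, bars are means of 2, and all axes start at 0. Keratins fall to 97.7 and 104 CPM per kilobase in TbxtΔexon6/+ cells while lamins stay between 120.1 and 130.0, and the ratio is above 1 in TbxtinsASAY/insASAY cells.

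Across the 8 libraries the log2 CPM of Krt8, Krt18, Krt19 and Vim moved together, with Pearson r from 0.851 for Krt18 and Vim to 0.962 for Krt18 and Krt19. Krt7 had lower values with these 4 genes, from 0.124 with Vim to 0.524 with Krt18. Lmna ranged from 0.281 with Krt8 to 0.605 with Krt18, Lmnb1 from −0.0423 with Krt18 to 0.330 with Vim, and Lmnb2 from 0.0641 with Krt18 to 0.363 with Krt8. The points are 4 genotypes with 2 libraries each, so these values mostly describe the genotype means. Among the 11103 genes averaging 5 CPM or more over the libraries, those most like Krt8 were Pld2 (r = 0.994), a phospholipase D, Sfn (r = 0.993), which encodes the epithelial 14-3-3 protein stratifin, and Ccdc120 (r = 0.992). Sfn stood at 41.5 CPM in wild-type and 8.78 CPM in TbxtΔexon6/+ cells. Among the genes most like Krt18 were Myof and Stx12 (r = 0.993 and 0.990), those most like Krt19 were Anxa5, Sh3bp4 and Chpf (r = 0.990 to 0.994), and those most like Vim were Il6st, Rnf14 and Efs (r = 0.994 to 0.995). For Krt7 they were Krtcap3, Pik3c2b and Nfu1 (r = 0.958 to 0.971), for Lmna Rbfox2, Tmem59l and Lrrc8b (r = 0.967 to 0.978), for Lmnb1 Psmd5, Sema3f and Kiz (r = 0.987 to 0.992), and for Lmnb2 Trmo, Zfp715 and Riox1 (r = 0.955 to 0.976).

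The other keratins were mostly silent. Of 50 other genes named Krt and a number, 8 passed the filter on low counts. Against wild-type, 1 was called lower in TbxtΔexon6/Δexon6, 2 in TbxtΔexon6/+ and 2 in TbxtinsASAY/insASAY cells, and 0 were called higher in any of them. In the same order, 6.59%, 6.89% and 9.85% of all tested genes were called lower, and 6.12%, 6.60% and 11.5% higher. They are named here after their values were seen: Krt42 in TbxtΔexon6/Δexon6 cells, Krt12 and Krt17 in TbxtΔexon6/+ cells, and Krt17 and Krt20 in TbxtinsASAY/insASAY cells. Krt17, a stress-responsive type I keratin, stood at 2.09 CPM in wild-type, 0.793 in TbxtΔexon6/+ and 0.731 in TbxtinsASAY/insASAY cells. None of these genes averaged 2 CPM over the libraries, and the counts lay between 0 and 4 over the alternative settings.

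Of 15 tested genes that anchor or surround intermediate filaments, the plakins and desmosome genes, 8 were called lower and 0 higher in TbxtΔexon6/+ cells, where 6.89% of all tested genes were called lower. The median log2 fold change of the 15 was −0.51, and the other 7 were not called, among them Pkp4 at 0.23. Called in either direction were 12.7% of all tested genes in TbxtΔexon6/Δexon6, 13.5% in TbxtΔexon6/+ and 21.3% in TbxtinsASAY/insASAY cells. Pkp3, a desmosomal plakophilin, went from 28.5 to 15.0 CPM (log2 fold change −0.92, edgeR adjusted p = 9.51e-06). Jup, the desmosomal and junctional protein plakoglobin, went from 59.2 to 33.8 CPM (−0.81, edgeR adjusted p = 1.86e-05), and Dsc3, a desmosomal cadherin, from 5.95 to 3.45 CPM (−0.79, edgeR adjusted p = 0.00647). Without wild-type replicate 2 the count was 5 of 15. In TbxtΔexon6/Δexon6 and in TbxtinsASAY/insASAY cells 1 of the 15 was called, Dsc3 in both, with log2 fold changes of −0.80 and −1.36; the count was 3 in the first without TbxtΔexon6/Δexon6 replicate 1 and 0 without wild-type replicate 2, and 4 in the second without TbxtinsASAY/insASAY replicate 2 and 2 without wild-type replicate 1.

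Of 22 epithelial adhesion genes and regulators, 11 were called lower and 0 higher in TbxtΔexon6/+ cells, beside the same 6.89% of all genes, with a median log2 fold change of −0.53. The other 11 were not called, among them Tjp1 at 0.11. Cldn6, a tight junction claudin, went from 211 to 61.4 CPM (log2 fold change −1.78, edgeR adjusted p = 1.89e-08) and Cldn7, another claudin, fell from 62.7 CPM by 1.51 on the log2 scale (edgeR adjusted p = 3.96e-07), while the apical polarity gene Crb3 went from 25.8 to 9.41 CPM (−1.46, edgeR adjusted p = 9.03e-07). In TbxtΔexon6/Δexon6 cells 4 rose and 1 fell, among them Esrp2, an epithelial splicing regulator (0.98), and Cldn3 (0.75), with Tjp3 lower (−0.51); without replicate 2 of that genotype Esrp2 was at 0.71, and Cldn3 (0.38) and Tjp3 (−0.48) were no longer called. Over all tested genes 6.12% were called higher and 6.59% lower in TbxtΔexon6/Δexon6 cells. In TbxtinsASAY/insASAY cells 4 rose and 4 fell, where 11.5% of all tested genes were called higher and 9.85% lower. Esrp2 (1.09) and the epithelial transcription factors Grhl2 (0.64) and Grhl3 (0.55) were higher there. Cldn6 (−0.73) and Cdh1, which encodes E-cadherin (−0.72), were lower. Krt18 was lower and Krt8 was not called in those cells. The count of 5 in TbxtΔexon6/Δexon6 cells was 1 without replicate 2 of that genotype and 3 without wild-type replicate 1, the count of 8 in TbxtinsASAY/insASAY cells was 5 without its replicate 2, and the count of 11 in TbxtΔexon6/+ cells stayed between 10 and 12.

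Mesenchymal genes and regulators of the epithelial to mesenchymal transition moved in both directions. Over all tested genes 12.7%, 13.5% and 21.3% were called in TbxtΔexon6/Δexon6, TbxtΔexon6/+ and TbxtinsASAY/insASAY cells. Of 15 tested genes of this list, 3 were called higher and 4 lower in TbxtΔexon6/+ cells. The transcription factor gene Zeb2 went from 8.89 to 17.1 CPM (log2 fold change 0.95, edgeR adjusted p = 4.03e-05) and Cdh2, which encodes N-cadherin, from 22.1 to 41.3 CPM (0.90, edgeR adjusted p = 5.67e-06), while Tgfb1 fell by 1.27 on the log2 scale. In TbxtΔexon6/Δexon6 cells 2 were higher and 3 lower, and in TbxtinsASAY/insASAY cells 1 was higher and 6 lower, with Fn1, which encodes fibronectin, going from 1230 CPM in wild-type to 683 and 538 CPM. The count of 5 in TbxtΔexon6/Δexon6 cells was 3 without wild-type replicate 2.

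The other cytoplasmic filament genes comprised those of types III and IV, related genes such as Sync, and the family orphans Iffo1 and Iffo2. Of 12 tested, 1 was called higher and 1 lower in TbxtΔexon6/+, 5 higher and 3 lower in TbxtΔexon6/Δexon6, and 3 higher and 5 lower in TbxtinsASAY/insASAY cells. In the same order, 13.5%, 12.7% and 21.3% of all tested genes were called. Prph, which encodes peripherin, moved most of the type III genes in TbxtΔexon6/+ cells: it stood at 204 CPM in wild-type, 152 in TbxtΔexon6/Δexon6, 120.0 in TbxtinsASAY/insASAY and 60.3 in TbxtΔexon6/+ cells (log2 fold change −1.76, edgeR adjusted p = 1.66e-09). Nes, which encodes nestin, a filament protein of neural progenitors, rose in TbxtΔexon6/Δexon6 cells from 91.9 to 161 CPM (0.81, edgeR adjusted p = 0.000204), with 1.02 and 0.56 without replicate 1 and replicate 2. Iffo1 was the gene called higher in TbxtΔexon6/+ cells (0.58), and it was lower in TbxtΔexon6/Δexon6 cells (−0.54, and −0.40 and not called without replicate 2). Ina, which encodes the neuronal protein internexin alpha, rose in TbxtΔexon6/Δexon6 (1.00) and TbxtinsASAY/insASAY cells (1.44), while Des, which encodes the muscle protein desmin, fell in both (−0.56 and −1.10). Without TbxtΔexon6/Δexon6 replicate 2 Ina was at 0.61, and Des at −0.46 was no longer called. The 8 calls in TbxtΔexon6/Δexon6 cells were 4 without replicate 2 of that genotype and 5 with unstranded counts, and the 8 in TbxtinsASAY/insASAY cells were 5 without wild-type replicate 1.

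**Figure D4:**
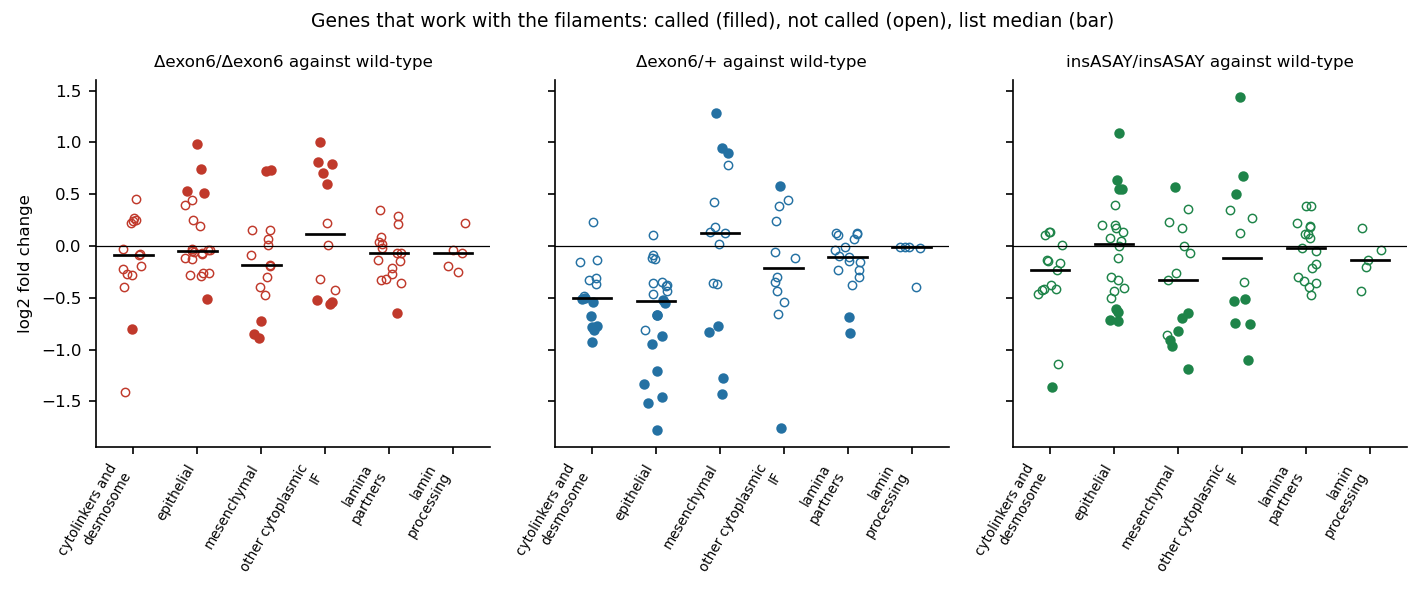
Log2 fold change against wild-type (vertical axis) of the tested genes in 6 lists, 1 panel for each mutant genotype; filled points were called, open points were not, and bars are list medians. In TbxtΔexon6/+ cells the linker and epithelial lists have medians of −0.51 and −0.53 and no called gene above 0, while the lamina and lamin processing lists lie around 0.

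The next list held 11 tested genes, taken for binding or folding keratins or for a keratin-related name. Krtcap2 and Krtcap3 were listed by name, and neither was called. The calls were 1 higher and 1 lower in TbxtΔexon6/Δexon6, 0 higher and 3 lower in TbxtΔexon6/+, and 1 higher and 1 lower in TbxtinsASAY/insASAY cells. In the same order, 12.7%, 13.5% and 21.3% of all genes were called. Fam83h, which encodes a protein that recruits casein kinase to keratin filaments, varied over a wide range, at 8.97 CPM in wild-type, 24.2 in TbxtΔexon6/Δexon6, 33.4 in TbxtinsASAY/insASAY and 4.37 in TbxtΔexon6/+ cells, and was called in each (log2 fold changes of 1.44, 1.90 and −1.03); the first was 1.76 and 1.01 without replicate 1 and replicate 2 of TbxtΔexon6/Δexon6. The small heat shock gene Hspb1 went from 231 to 82.3 CPM in TbxtΔexon6/+ cells (−1.49, edgeR adjusted p = 1.27e-08), and Hspb8 from 59.0 to 20.9 CPM in TbxtinsASAY/insASAY cells (−1.50, edgeR adjusted p = 4.72e-06).

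Of 17 genes of the inner nuclear membrane, the LINC complex that ties the lamina to the cytoskeleton, and lamina binding, 1 was called in TbxtΔexon6/Δexon6 (Syne1, −0.65, and −0.45 and not called without replicate 2), 2 in TbxtΔexon6/+ (Syne3, −0.84, and Sun2, −0.68) and 0 in TbxtinsASAY/insASAY cells, beside the same 12.7%, 13.5% and 21.3% of all genes. Each of those called encodes a LINC complex component, and leaving out single libraries gave 0 to 1, 1 to 2 and 0 to 1 calls. Of the 5 listed genes of lamin precursor processing, 0 were called in any of the comparisons.

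Marker lists of other cell types were read beside these results. Over all tested genes 12.7%, 13.5% and 21.3% were called in TbxtΔexon6/Δexon6, TbxtΔexon6/+ and TbxtinsASAY/insASAY cells against wild-type. Trophectoderm, which is rich in keratin 8 and keratin 18, was represented by 13 listed genes. Their summed level was 84.9 to 90.3 CPM in wild-type, 73.4 to 74.5 in TbxtΔexon6/Δexon6, 71.9 to 74.5 in TbxtΔexon6/+ and 69.3 to 72.4 in TbxtinsASAY/insASAY cells. Of the list only Elf5 and Tfap2a were under 1 CPM in every library. Others were expressed in wild-type cells, among them Esx1 (22.7 CPM), Tfap2c (14.1), Tead4 (10.5) and Gata3 (7.28). Cdx2, also on the list, was near the floor in wild-type cells, at 0.222 CPM. It was called higher in TbxtΔexon6/+ cells, at 1.86 CPM (log2 fold change 3.06, edgeR adjusted p = 0.00017), and in TbxtinsASAY/insASAY cells, at 0.767 CPM (1.78, edgeR adjusted p = 0.0118). Of the 12 tested, 1 was called higher and 5 lower in TbxtΔexon6/Δexon6, 1 and 3 in TbxtΔexon6/+, and 1 and 4 in TbxtinsASAY/insASAY cells, where the 5 calls were 3 without TbxtinsASAY/insASAY replicate 1. Eomes, which is also a primitive streak gene, stood at 14.0 CPM in wild-type, 20.4 in TbxtΔexon6/Δexon6, 7.25 in TbxtΔexon6/+ and 15.8 in TbxtinsASAY/insASAY cells.

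The fibroblast list, with vimentin-rich feeder cells in view, had a summed level of 452 to 470 CPM in wild-type, 402 to 404 in TbxtΔexon6/Δexon6, 270 to 280 in TbxtΔexon6/+ and 154 to 185 in TbxtinsASAY/insASAY cells. Most of the sum was Tagln, an actin-binding gene (377 CPM in wild-type), and Col3a1, Lum and Postn were under 1 CPM in every library. Of 13 tested, 0 were called higher and 4 lower, 3 higher and 4 lower, and 0 higher and 9 lower in TbxtΔexon6/Δexon6, TbxtΔexon6/+ and TbxtinsASAY/insASAY cells, and the 7 calls in TbxtΔexon6/+ cells were 3 or 4 without any single library of wild-type or TbxtΔexon6/+. Primitive endoderm genes summed to 680 to 735 CPM in wild-type, 479 to 506 in TbxtΔexon6/Δexon6, 678 to 759 in TbxtΔexon6/+ and 428 to 444 in TbxtinsASAY/insASAY cells, with Ttr at 0 and Sox7, Foxa2, Cubn and Afp under 1 CPM; 0, 3 and 1 of the 13 tested were called higher and 5, 0 and 3 lower, and the first 5 were 2 without TbxtΔexon6/Δexon6 replicate 2. Most of the wild-type primitive endoderm sum was Lamb1 (449 CPM), Col4a1 (127) and Col4a2 (87.9). Gata4 stood at 9.30, Gata6 at 1.41 and Sox17 at 0.766 CPM there. Of the ES cell list, 0, 2 and 0 of 10 were called higher and 4, 4 and 2 lower, with sums of 985 to 1210 CPM over all libraries. Nanog was called lower in every mutant (−1.04, −0.80 and −0.73). In TbxtΔexon6/+ cells Tdgf1 (−2.26) and Pou5f1 (−0.68) were also called lower, and Lin28a (0.81) and Sox2 (0.72) were called higher. Primitive streak genes summed to 16.6 to 29.6 CPM, with Cer1 at 0 and 6 others under 1 CPM in every library; 1 of the 7 tested was called higher in each mutant and 2, 3 and 2 lower, and leaving out single libraries gave 1 to 4 calls. Over all tested genes 12.7%, 13.5% and 21.3% were called in TbxtΔexon6/Δexon6, TbxtΔexon6/+ and TbxtinsASAY/insASAY cells. By direction these were 6.12%, 6.60% and 11.5% higher, and 6.59%, 6.89% and 9.85% lower. The primitive streak list includes Tbxt, the edited gene. Tbxt was 1 of the 2 streak genes called lower in TbxtΔexon6/Δexon6 cells (−0.81, edgeR adjusted p = 0.036). The part of the marker genes in the keratin and vimentin differences was not tested.

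The position of the genes was examined because many genes of chromosome 3, which holds Lmna, were higher in TbxtΔexon6/+ cells. Of its 847 tested genes, 242 were called higher and 64 lower, with a median log2 fold change of 0.33. Over all tested genes 6.60% were called higher and 6.89% lower. Of the 148 tested genes within 5 Mb of Lmna, 53 were called higher and 6 lower, with a median of 0.42, and the genes at lower and higher coordinates had medians of 0.44 and 0.41. Lmna itself was at −0.13, below 130 of these 148 neighbours. Of the 10 nearest genes averaging 5 CPM or more, 5 on each side, 6 were called higher and 1 lower, among them Smg5 (0.58) and Lamtor2 (0.67), named here for their position after their values were seen. The tested genes directly beside Lmna, Sema4a (0.16) and Gm37584 (−0.57), were not called. In TbxtΔexon6/Δexon6 and TbxtinsASAY/insASAY cells the medians of the same neighbours were −0.04 and −0.06. Leaving all other chromosome 3 genes out of the fit changed no call of the 8 genes.

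**Figure D5:**
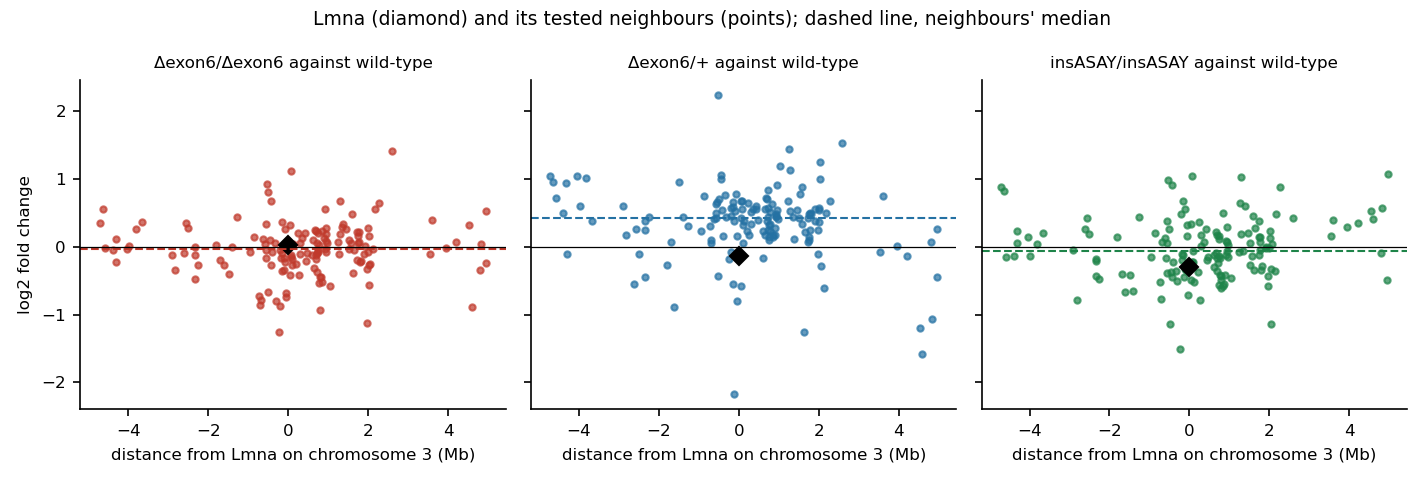
Log2 fold change against wild-type (vertical axis) of Lmna (diamond) and the 148 tested genes within 5 Mb (points) by distance from the start of Lmna on chromosome 3, in the 3 mutant genotypes; dashed lines are the neighbours' medians. In TbxtΔexon6/+ cells the neighbours' median is 0.42 and Lmna lies at −0.13.

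The neighbours of the other genes had medians near 0. Of the 130 tested genes within 5 Mb of Krt8 in TbxtΔexon6/+ cells, 5 were called higher and 18 lower, with a median log2 fold change of −0.08. That is 17.7% called, beside 13.5% of all tested genes (6.60% higher and 6.89% lower). In TbxtΔexon6/Δexon6 cells 4 of them were called higher and 19 lower (17.7%, beside 12.7% of all tested genes). In TbxtinsASAY/insASAY cells these counts were 5 and 23 (21.5%, beside 21.3%). Krt8 and Krt18 lie side by side, and the tested genes that flank the pair were not called: Krt79 was at 0.33 (edgeR adjusted p = 0.644) and Eif4b, a translation initiation factor gene, at 0.06 (edgeR adjusted p = 0.324). Krt79 held only 87 reads over all 8 libraries, so its missing call shows little. Within 5 Mb of Krt19 in TbxtΔexon6/+ cells, 7 of 244 genes were called higher and 30 lower (15.2% called, median −0.12). Within 5 Mb of Vim 3 of 38 were called higher and 1 lower (10.5% called, median 0.06). Krt8, Krt18 and Krt19 stood out by their falls in TbxtΔexon6/+ cells, so their distance from these medians is a description. The part of position was not tested.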

How the data were processed

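The authors aligned paired reads to mm10 with STAR 2.7.2a and deposited counts of reads per gene, as whole numbers without normalization. The reverse-strand count was used, as fits the directional kit; 4.11 to 4.78% of stranded reads lay on the other strand. Reads on genes were 24618587 to 28445952 per library. The 8 genes had 163 to 9087 reads per library. For the lowest counts, as for Krt7 (163 to 223 reads), counting noise limits precision beside the spread of 2 replicates. Symbols came from GENCODE M21, by ID without version for 48058 of 48440 genes. The authors' build and the promoter table share the GRCm38 assembly.

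All 8 libraries were fitted together in edgeR 4.0.16 (R 4.3.3; quasi-likelihood test, TMM, filterByExpr with a minimum count of 10, 1 coefficient for each genotype), with Benjamini-Hochberg adjustment over 17049 genes. SE is the log2 fold change over the square root of F. The fit was tested on simulated data for TbxtinsASAY/insASAY against wild-type (16743 genes), where 98 of 100 changes of log2 size 1 and 100 of 100 of size 2 were called. Alternatives were DESeq2 1.42.0 (the study used version 1.40.2), its size factors, other filters, unstranded counts, 2 groups only, a replicate block, and leaving out chromosome 3 or each library. Replicates were never identical: their counts differed by more than sampling noise in every genotype.

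The 8 genes and the gene lists were chosen with earlier results of these data known. The lists were other keratins, other cytoplasmic filaments, linkers, keratin binding or keratin-related name, lamina, lamin processing, epithelial and mesenchymal genes. Markers of ES cells, fibroblasts, trophectoderm, primitive endoderm and primitive streak formed the rest. Named were the 8 genes, Tbxt, up to 3 called genes of each list, comparison with wild-type and direction with a mean of at least 2 CPM, marker levels, the 3 most correlated genes (1 of which is not reported here), and the genes beside Lmna. Eppk1 and Psx1 were not found by symbol.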

Additional observations from a re-analysis of the deposited data

Results flagged for a closer look

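Krt8, Krt19 and Vim moved in opposite directions in the heterozygous and the homozygous exon 6 deletion, each past the p threshold against wild-type. All 3 were flagged for this pattern. The direct difference combines the same 2 changes, so its being called is not separate support. Between TbxtΔexon6/+ and TbxtΔexon6/Δexon6 cells the log2 difference was −1.95 for Krt8 (95% confidence interval −2.28 to −1.62), −2.12 for Krt19 (−2.48 to −1.76) and −0.91 for Vim (−1.02 to −0.80). Vim also differed in direction between TbxtΔexon6/+ and TbxtinsASAY/insASAY cells, with a log2 difference of 0.54 (0.43 to 0.66) between them. The opposite direction rests on the small rise of Vim in TbxtinsASAY/insASAY cells (0.13). That rise missed the p threshold with the DESeq2 Wald test and without a filter on low counts. The change of Krt8 in TbxtΔexon6/Δexon6 cells was 0.08 without replicate 2 of that genotype, and it missed the p threshold with the DESeq2 Wald test (adjusted p = 0.129), with 2 genotypes alone (edgeR adjusted p = 0.0615) and without either wild-type library (edgeR adjusted p = 0.139 and 0.0864).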

How the results depend on the processing

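Of the 8 genes, 1 was called in TbxtΔexon6/Δexon6 cells against wild-type, and 2 with DESeq2 size factors, with the DESeq2 Wald test or without a filter, Vim being added each time; leaving out single libraries gave 0 to 3. In TbxtinsASAY/insASAY cells leaving out single libraries gave 0 to 1 against wild-type, and 1 to 3 (2 with all libraries) against TbxtΔexon6/Δexon6 cells. The counts of 3, 4 and 4 in the comparisons with TbxtΔexon6/+ cells stayed within 1.5 times under all 16 alternatives. Changes of sign fell on small, uncalled values. Without single libraries the log2 fold change against wild-type in TbxtΔexon6/Δexon6 cells was −0.0433 to 0.393 for Krt18, −0.0869 to 0.134 for Lmna and −0.104 to 0.0515 for Lmnb2, and in TbxtΔexon6/+ cells −0.0861 to 0.0139 for Lmnb2. Between TbxtΔexon6/+ and TbxtΔexon6/Δexon6 cells it was −0.0637 to 0.0136 for Lmnb1 and −0.0859 to 0.0667 for Lmnb2 (0.0002 without chromosome 3 genes), and between TbxtinsASAY/insASAY and TbxtΔexon6/+ cells −0.155 to 0.0435 for Krt7. The cause was not tested. Same-numbered replicates did not deviate together (correlations −0.0097 to 0.049), and the replicate block gave the same counts of the 8 genes: 1, 3, 1, 4, 2 and 4. Over all genes, 880 were called between TbxtinsASAY/insASAY and TbxtΔexon6/Δexon6 cells, 582 with the DESeq2 Wald test, 572 with these 2 groups alone, 1529 without TbxtΔexon6/Δexon6 replicate 2 and 358 without TbxtinsASAY/insASAY replicate 1; between TbxtΔexon6/Δexon6 and wild-type cells 2167 were called, 3388 without TbxtΔexon6/Δexon6 replicate 1 and 1149 without replicate 2. Per kilobase of longest coding transcript, chosen after seeing the data, 6 of the 8 levels moved by more than 1 SD.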
